A study of Mus musculus with 6 samples.

Results

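The 10 genes described here encode effector cytokines and chemokines, the soluble products with which activated CD8 T cells act on other cells: Ifng, Tnf, Lta, Ltb, Ccl3, Ccl4, Ccl5, Xcl1, Il2 and Csf2. They were taken by symbol from the authors' full table, which lists 17744 genes, and all 10 are in it. The table comes from RNA-seq of mouse spleen cells gated on CD45, CD3 and CD8a, the surface proteins that together define CD8 T cells, with 3 control libraries and 3 libraries labelled as irradiated with focused ultrasound (fus), sound waves concentrated on one tissue. They are called control 1 to 3 and ultrasound 1 to 3. The control libraries carry the genotype label wt, and in the treated libraries the genotype field repeats the treatment. The labels give no strain, age, dose, interval after treatment or tumor status, and nothing says whether the 3 libraries of a group came from separate animals, so p-values measure the spread between these libraries, which may be technical.

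Interferon gamma (Ifng) and tumor necrosis factor (Tnf) are the main inflammatory cytokines of CD8 T cells. They are made within hours of T cell receptor engagement, when NFAT, AP-1 and NF-kB factors act on their promoters, and their mRNAs are short-lived because decay factors bind AU-rich elements and stem-loops in them. Lymphotoxin alpha (Lta) and beta (Ltb) are TNF family ligands that organize lymphoid tissue. Ccl3, Ccl4 and Ccl5 are CC chemokines that draw other leukocytes, and Xcl1 draws cross-presenting dendritic cells through Xcr1. Interleukin 2 (Il2) is the T cell growth factor, and Csf2 encodes GM-CSF, which acts on myeloid cells. Ccl5 is stored as mRNA in memory cells, whereas Ifng, Tnf, Ccl3, Ccl4 and Xcl1 are strongly induced on stimulation.

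Some of the genes are neighbours in the mouse genome (GENCODE M21, GRCm38; the submitters' processing notes name mm10). Ifng is on chromosome 10 from 118441046 to 118445892 on the plus strand. On chromosome 17, Ltb (35194439 to 35196320, plus strand), Tnf (35199381 to 35202007, minus strand) and Lta (35203165 to 35205351, minus strand) are neighbours, with 1157 bases between Tnf and Lta. On chromosome 11, Ccl3 (83647844 to 83649355, minus strand) and Ccl4 (83662584 to 83664683, plus strand) stand 13228 bases apart, Ccl5 is at 83525778 to 83530518 (minus strand) and Csf2 is at 54247271 to 54249667 (minus strand). Xcl1 is on chromosome 1 from 164931644 to 164935527 and Il2 on chromosome 3 from 37120523 to 37125959, both on the minus strand. All 10 are annotated as protein-coding. In GENCODE M21, genes on the opposite strand overlap Xcl1, Il2 and Csf2. Whether the authors counted by strand is not given in the sources used here, so reads from such partners may be included in these 3 values.

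RefSeq promoter sequences (GRCm38.p6) were at hand for 8 of the 10 genes, and Ccl4 and Ccl5 had none. The 250 bases before the start site are printed for the 3 tested genes whose groups of libraries did not overlap in FPKM (Ifng, Ccl3 and Xcl1) and for Tnf. Capitals mark matches on either strand to the TATA box, searched as TATAAA. They also mark the core of sites bound by the calcium-dependent factor NFAT, searched as GGAAA and read as its complement where it lies on the other strand. The AP-1 site TGANTCA and the NF-kB consensus, which can overlap the NFAT core, were searched in the same way.
Ifng promoter, chr10:118440796-118441045, strand plus: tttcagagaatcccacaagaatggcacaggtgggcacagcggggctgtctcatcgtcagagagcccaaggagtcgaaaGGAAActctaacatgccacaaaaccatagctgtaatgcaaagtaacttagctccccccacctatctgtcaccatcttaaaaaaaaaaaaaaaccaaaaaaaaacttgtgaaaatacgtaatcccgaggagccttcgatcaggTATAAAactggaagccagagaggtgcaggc
Tnf promoter, chr17:35202008-35202257, strand minus: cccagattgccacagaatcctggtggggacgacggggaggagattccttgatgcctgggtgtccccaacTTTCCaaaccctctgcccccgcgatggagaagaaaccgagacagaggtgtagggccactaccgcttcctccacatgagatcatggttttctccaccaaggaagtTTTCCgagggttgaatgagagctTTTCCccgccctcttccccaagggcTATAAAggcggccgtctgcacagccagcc
Ccl3 promoter, chr11:83649379-83649628, strand minus: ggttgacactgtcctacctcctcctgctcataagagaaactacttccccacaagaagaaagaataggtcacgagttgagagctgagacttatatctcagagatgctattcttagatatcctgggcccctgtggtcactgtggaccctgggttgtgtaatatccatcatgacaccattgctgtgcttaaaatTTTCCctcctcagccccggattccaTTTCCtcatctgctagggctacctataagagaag
Xcl1 promoter, chr1:164935523-164935772, strand minus: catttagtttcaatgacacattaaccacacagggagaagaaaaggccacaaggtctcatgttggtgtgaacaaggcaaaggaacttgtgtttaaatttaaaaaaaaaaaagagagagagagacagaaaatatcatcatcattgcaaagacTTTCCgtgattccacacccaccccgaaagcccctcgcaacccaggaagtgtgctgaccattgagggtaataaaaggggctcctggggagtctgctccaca
GGAAA occurred in 8 of the 8 promoters, and in 55.6% of the 32851 RefSeq promoters searched over the same length. TATAAA occurred in Ifng, Tnf, Lta and Il2, 4 of the 8, against 12.4% of all promoters. In Ifng it began 30 bases and in Tnf 29 bases before the start. TGANTCA occurred in 0 of the 8 (6.75% of all promoters) and the NF-kB consensus in Ltb alone (7.25%). These are matches of letters in this window and not measured sites.

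The 8 genes with a level of at least 1 FPKM (fragments scaled to gene length and library size) in 3 libraries were tested with limma on log2(FPKM + 1) among 10655 genes, while Il2 and Csf2 were too low. Ifng passed an adjusted p of 0.05, and the other 7 did not, with limma adjusted p from 0.0886 to 0.871. That is 1 of 8, where 8.11% of all genes tested passed, 6.55% higher and 1.56% lower in ultrasound libraries. Of the 8 genes, 4 had a log2 change below 0 and 4 above 0, with a median of -0.26 against 0.09 over all genes tested. The groups of libraries did not overlap in FPKM for 3 of the 8, Ifng and Xcl1 lower and Ccl3 higher in ultrasound, against 34.8% of all genes tested (25.9% higher and 8.96% lower). For Ccl3 this was lost under every other scaling used, and for Xcl1 with scaling to CD8 T cell markers.

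**Figure D1:**
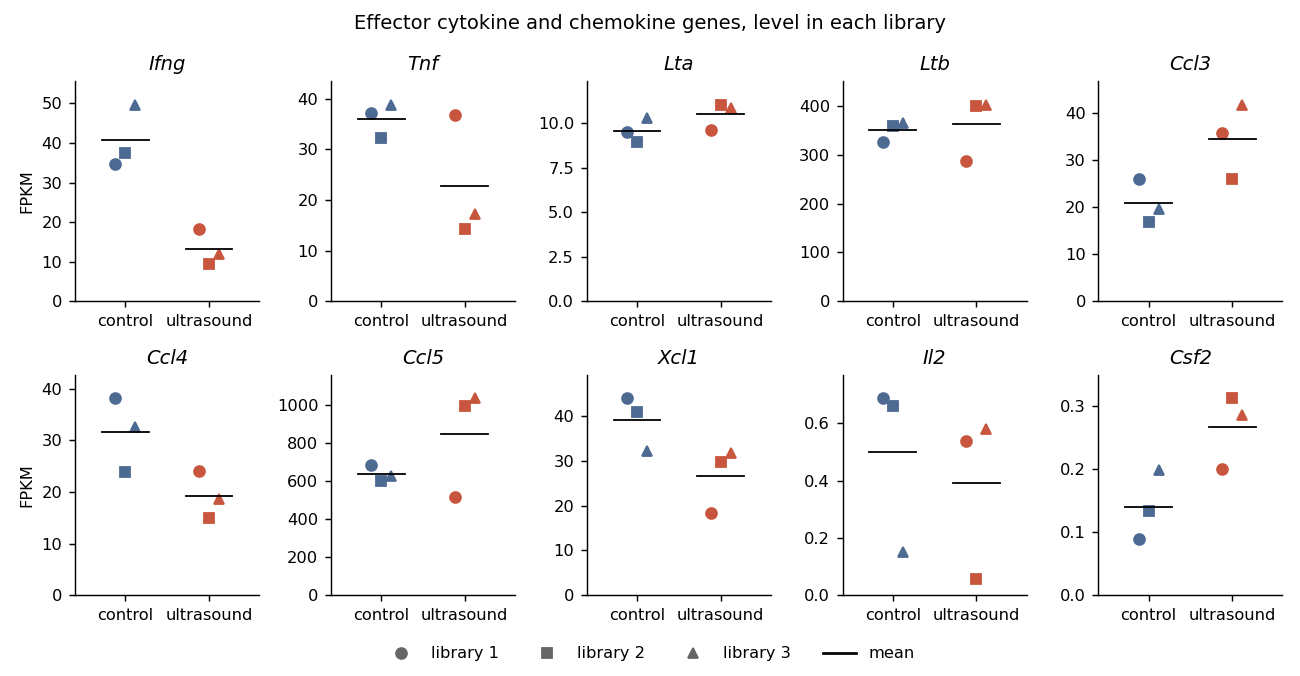
Level of each of the 10 genes in FPKM (vertical axes, each from 0) in control and ultrasound libraries; symbols stand for library 1, 2 or 3 and the line for the mean of 3. Ifng lay lower in every ultrasound library, Ccl3 slightly to clearly higher, and Tnf, Ltb and Ccl5 in ultrasound 1 lay away from ultrasound 2 and 3.

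The libraries of the series hold 35024080 to 38113103 recovered reads. Ultrasound 1 stands apart from ultrasound 2 and 3: mitochondrial genes took 2.19% of its reads, within the 2.05% to 2.7% of the controls, against 0.954% and 0.937% in ultrasound 2 and 3. The labels name no batch, and the part of this difference in the results was not tested. The 8 tested genes and the gene lists were therefore also fitted for ultrasound 2 and 3 without ultrasound 1, where 53.7% of genes passed, and for ultrasound 1 alone against the controls with the spread taken from the other libraries, where 1.41% passed (0.967% higher and 0.441% lower). In ultrasound 2 and 3, 4 of the 8 genes passed, Ccl5 higher and Ifng, Tnf and Ccl4 lower, where 34.1% of all genes were higher and 19.7% lower; in ultrasound 1 alone 1 passed, Xcl1, which was lower. Because the split follows a difference seen in these same data, p-values for ultrasound 2 and 3 may be too small. The CD8 T cell markers were abundant in every library, with a summed level of the 10 markers of 2670 to 2805 FPKM in controls and 2327, 2920 and 2701 FPKM in ultrasound 1, 2 and 3. Cd4 stood at 41.5 to 74.6 FPKM, and the myeloid gene Lyz2 at 207 to 499 FPKM in controls and at 1430, 1513 and 2721 FPKM in ultrasound 1, 2 and 3. Of the other marker lists, the CD4 and regulatory T cell list summed to 186 to 221 FPKM in controls and 143 to 236 FPKM in ultrasound libraries, the dendritic cell list to 96.6 to 135 and 97.9 to 183 FPKM, and the erythroid list to 83.2 to 133 and 55.3 to 112 FPKM. The platelet list stayed under 4.5 FPKM, with Gp1ba and Treml1 at 0 in a library, and the mast cell and basophil list under 3.2 FPKM, with Fcer1a and Ms4a2 at 0 in a library. These are bulk samples, so fewer cells of a type and less RNA per cell cannot be told apart.

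Ifng fell about 3-fold in ultrasound libraries. Its level was 34.8, 37.5 and 49.7 FPKM in control 1, 2 and 3 and 18.3, 9.39 and 12.1 FPKM in ultrasound 1, 2 and 3, resting on 426 to 2122 reads. Every ultrasound library lay below every control, with ultrasound 1 closest to them. The mean went from 40.7 ± 7.93 FPKM to 13.2 ± 4.55 FPKM (SD, n = 3 each), 3.07-fold lower, and the log2 change was -1.58 (95% interval -2.16 to -1.0; limma adjusted p = 0.0304). Scaled to the CD8 T cell markers the change was -1.53 (limma adjusted p = 0.0357). The fall was -1.82 in ultrasound 2 and 3 (limma adjusted p = 0.000965) and -1.10 in ultrasound 1 alone (limma adjusted p = 0.0777). The call was lost without control 2, control 3, ultrasound 2 or ultrasound 3, at limma adjusted p of 0.159, 0.144, 0.0672 and 0.0986, fits in which 0 of all genes passed and 1962 to 2154 had an unadjusted p under 0.05. The log2 change stayed between -1.82 and -1.38 over all fits without 1 library. In the authors' deposited table Ifng is 3.35-fold lower with a q of 5.98e-07.

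None of the 3 TNF family ligands passed the threshold over all libraries. Tnf had 37.1, 32.3 and 38.8 FPKM in the controls and 36.8, 14.4 and 17.3 FPKM in ultrasound 1, 2 and 3. Ultrasound 1 thus sat among the controls, while ultrasound 2 and 3 lay below every control, with a mean 2.28-fold lower. The mean log2 change was -0.75 (95% interval -1.51 to 0.01; limma adjusted p = 0.164). It was -1.14 in ultrasound 2 and 3 (limma adjusted p = 0.000479) and 0.03 in ultrasound 1 alone (limma adjusted p = 0.915).

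Lta, which forms a secreted trimer and, with Ltb, the membrane lymphotoxin complex, was the steadiest of the 10. It had 9.49, 8.93 and 10.3 FPKM in the controls and 9.64, 11.0 and 10.9 FPKM in ultrasound 1, 2 and 3, so that its highest library was 1.24 times its lowest. The log2 change of 0.12 had a 95% interval of -0.11 to 0.36 (limma adjusted p = 0.398), and it was 0.01 in ultrasound 1 alone (limma adjusted p = 0.962). Ltb had 326, 359 and 365 FPKM in the controls and 287, 401 and 403 FPKM in ultrasound 1, 2 and 3. Ultrasound 1 was its lowest library and ultrasound 2 and 3 its highest. The log2 change of 0.04 had a 95% interval of -0.32 to 0.40 (limma adjusted p = 0.871) and its sign turned with median-of-ratios scaling (-0.09) and upper-quartile scaling (-0.06). It was 0.20 in ultrasound 2 and 3 (limma adjusted p = 0.0567) and -0.28 in ultrasound 1 alone (limma adjusted p = 0.146). B cells also make lymphotoxin, and the summed level of the 11 B cell markers was also lowest in ultrasound 1 (197 FPKM) and highest in ultrasound 2 and 3 (1073 and 931 FPKM). In control 1, 2 and 3 it was 410, 269 and 269 FPKM, so that control 1 was the highest control for these markers and the lowest for Ltb. Of its 10 tested genes 0 passed, where 8.11% of all genes did, and their part in the Ltb values was not tested. In ultrasound 2 and 3, where Tnf passed, its neighbour Lta did not (log2 change 0.18, 95% interval -0.02 to 0.37; limma adjusted p = 0.104); the difference between them was not tested.

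**Figure D2:**
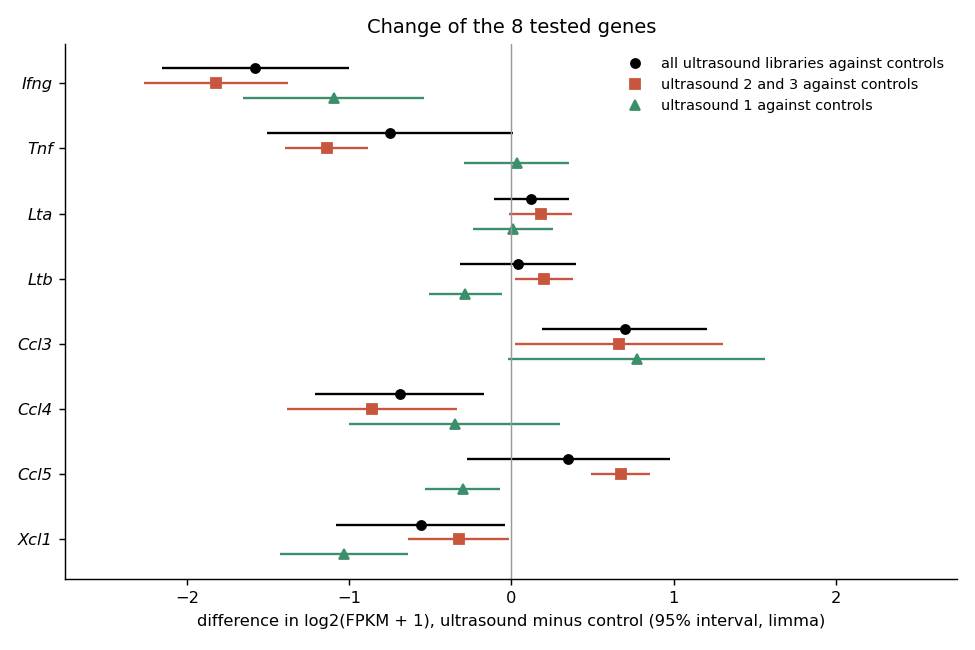
Difference in log2(FPKM + 1) between ultrasound and control libraries (horizontal axis) for the 8 tested genes, with 95% limma intervals, for all ultrasound libraries, for ultrasound 2 and 3, and for ultrasound 1 alone. For Ifng and Xcl1 all 3 intervals lie below 0. For Tnf, Ltb and Ccl5 the intervals of ultrasound 1 and of ultrasound 2 and 3 lie apart.

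The CC chemokines Ccl3 and Ccl4, which T cells usually induce together, lay in opposite directions. Ccl3 had 26.1, 16.9 and 19.7 FPKM in the controls and 35.8, 26.1 and 41.9 FPKM in ultrasound 1, 2 and 3. Every ultrasound library was above every control, although ultrasound 2, with 774 reads, was level with control 1, with 728 reads, to 3 digits. Ccl3 kept this separation under no other scaling used. Divided by median-of-ratios factors (1.084 for ultrasound 2 and 0.968 for control 1), Ccl3 was lower in ultrasound 2 than in control 1. Its log2 change was 0.70 (95% interval 0.19 to 1.21; limma adjusted p = 0.0886), 0.66 in ultrasound 2 and 3 and 0.77 in ultrasound 1 alone, neither past the threshold (limma adjusted p = 0.0762 and 0.236).

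Ccl4 had 38.1, 23.9 and 32.5 FPKM in the controls and 24.1, 14.9 and 18.6 FPKM in ultrasound 1, 2 and 3. Ultrasound 2 and 3 were below every control, and ultrasound 1 was just above control 2. The log2 change was -0.69 (95% interval -1.21 to -0.17; limma adjusted p = 0.0968). It passed in ultrasound 2 and 3 (-0.86, limma adjusted p = 0.0190) and not in ultrasound 1 alone (-0.35, limma adjusted p = 0.494). The authors' deposited table gives Ccl4 as 1.79-fold lower with a q of 0.0255 and Ccl3 as 1.52-fold higher with a q of 0.116. Of the 10 genes 2, Ifng and Ccl4, have a q under 0.05 there, both lower in ultrasound, where 12.3% of all its genes do (7.30% higher and 4.98% lower).

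Within a library the order of the pair turned over, a comparison made after the values were seen. The ratio of Ccl3 to Ccl4 in FPKM was 0.685, 0.706 and 0.606 in control 1, 2 and 3 and 1.49, 1.76 and 2.25 in ultrasound 1, 2 and 3. Ccl4 was thus the higher of the pair in every control and Ccl3 in every ultrasound library. The log2 ratio moved from -0.59 ± 0.12 to 0.85 ± 0.30 (SD, n = 3 each), a difference of 1.44, with an exact two-sided permutation p of 0.1, the smallest that 3 against 3 allow. A ratio within a library does not depend on its scaling, and the difference was 1.28 to 1.58 with any 1 library left out. Macrophages, monocytes and neutrophils also make Ccl3. The macrophage and monocyte list had all 14 of its genes above 0 FPKM in every library. It summed to 820 to 1243 FPKM in controls and to 2373, 2697 and 4160 FPKM in ultrasound 1, 2 and 3. Of its 14 genes 7 rose, where 6.55% of all genes did, and the other 7 had log2 changes above 0 that did not pass. Its median log2 change was 1.59, against 0.09 over all genes tested. Over the same libraries Ccl4 had a log2 change of -0.69. The neutrophil list of 11 genes summed to 199 to 599 FPKM in controls and to 2468, 693 and 725 FPKM in ultrasound 1, 2 and 3. Of these 11 genes 3 rose, where 6.55% of all genes did. The part of both lists in the Ccl3 and Ccl4 values was not tested.

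**Figure D3:**
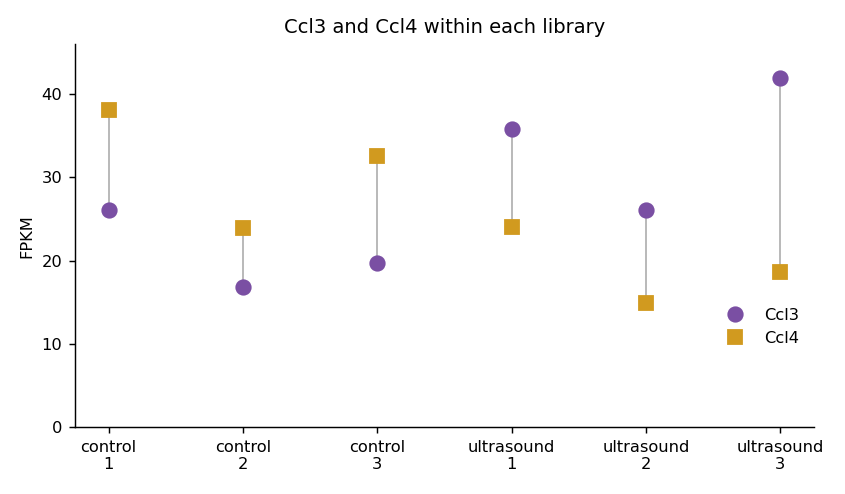
Level of Ccl3 (circles) and Ccl4 (squares) in FPKM in each of the 6 libraries, joined within a library. Ccl4 is the higher of the pair in the 3 controls and Ccl3 in the 3 ultrasound libraries.

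Ccl5 was the most abundant of the 10 genes, at place 102 among all genes by mean level in the controls. It had 682, 601 and 625 FPKM in the controls and 516, 994 and 1035 FPKM in ultrasound 1, 2 and 3. Ultrasound 1 was the lowest library and ultrasound 2 and 3 the highest, and the group means were 636 ± 41.7 FPKM and 848 ± 289 FPKM (SD, n = 3 each). The log2 change was 0.35 (95% interval -0.28 to 0.98; limma adjusted p = 0.376). It passed in ultrasound 2 and 3, at 0.67 (limma adjusted p = 0.000771), and was -0.30 in ultrasound 1 alone (limma adjusted p = 0.142). NK cells also hold Ccl5 mRNA. The 12 NK cell markers were all above 0 FPKM in every library. They summed to 155 to 293 FPKM in controls and 444, 673 and 780 FPKM in ultrasound 1, 2 and 3. The sum rested mostly on Tyrobp and Fcer1g, at 136 and 89.9 FPKM in control 1 and 222 and 165 FPKM in ultrasound 1. Gzma, next by level, had 21.9, 18.9 and 25.5 FPKM in controls and 18.9, 178 and 82.3 FPKM in ultrasound 1, 2 and 3. The sum thus need not show the course of the other NK cell markers. Of the 10 tested, 3 rose, among them Tyrobp and Fcer1g, where 6.55% of all genes did. Gzma did not pass (limma adjusted p = 0.193). Like the myeloid gene Lyz2, Tyrobp and Fcer1g were highest in ultrasound 3. Whether they mark NK cells here was not tested. The list's median log2 change was 0.94, whereas Ifng and Xcl1 had -1.58 and -0.56. The part of this list in the values of Ccl5 or any other member was not tested.

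Xcl1 was lowest in ultrasound 1. It had 44.0, 41.1 and 32.3 FPKM in the controls and 18.5, 29.7 and 31.9 FPKM in ultrasound 1, 2 and 3. All ultrasound libraries lay below all controls, but ultrasound 3 and control 3 were close to each other. Their order turned with scaling to the CD8 T cell markers. The log2 change of Xcl1 was -0.56 (95% interval -1.08 to -0.04; limma adjusted p = 0.143). It was -1.03 in ultrasound 1 alone against -0.32 in ultrasound 2 and 3 (limma adjusted p = 0.0743 in ultrasound 2 and 3). Xcl1 was the only one of the 8 past the threshold in ultrasound 1 alone. Its lowest library was thus the one in which Tnf was level with the controls.

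Il2 and Csf2 were near the limit of detection in these cells. Il2 had 23, 22 and 5 reads in the controls and 18, 2 and 21 reads in ultrasound 1, 2 and 3. The groups overlapped, with 1 low library in each, and the mean level was 0.499 ± 0.303 FPKM against 0.392 ± 0.291 FPKM (SD, n = 3 each; exact two-sided permutation p = 0.5). Csf2 had 4, 6 and 9 reads in the controls and 9, 15 and 14 reads in ultrasound 1, 2 and 3. Control 3 and ultrasound 1 had equal reads and nearly equal levels, 0.199 FPKM in both, and the test gave the smallest p that it can reach (exact two-sided permutation p = 0.1). By level every ultrasound library was above every control for Csf2, a difference that rests on 4 to 15 reads per library.

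Ordered by level per gene length, the controls had Ccl5 first, Ltb second, then Ifng, Xcl1, Tnf, Ccl4, Ccl3, Lta, Il2 and Csf2. The ranges of neighbours from Ifng to Ccl3 overlapped, and from Ifng to Ccl4 no gene was above the next in all 3 libraries, whereas Ccl4 was above Ccl3 in each of the 3. In ultrasound libraries Ccl5 and Ltb kept the first and second place. Ccl3 came next, and Ifng stood at place 7 behind Xcl1, Tnf and Ccl4, with overlapping ranges from Ccl3 through Lta. By mean level among all 17744 genes, Ifng went from place 1530 to place 4744 and Ccl3 from place 3099 to place 1971.

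The genes with the most similar course over the 6 libraries were sought by the root mean square difference between log2(FPKM + 1) profiles centred on their means. Closest to Ifng were Tgif1, a homeobox repressor (0.0871), Dusp2, a MAP kinase phosphatase (0.0961), and Rrad, a small GTPase (0.0981). Dusp2 went from 313, 331 and 368 FPKM in the controls to 165, 85.8 and 114 FPKM in ultrasound 1, 2 and 3, and Tgif1, Dusp2 and Rrad had log2 changes of -1.62, -1.51 and -1.54. Closest to Tnf were Gadd45g, a stress-induced growth arrest gene (0.0611), Pim1, a survival kinase (0.0741), and Gm4963 (0.0965). Gm4963 was low, at 2.09, 1.80 and 1.97 FPKM in the controls and 2.09, 0.112 and 0.608 FPKM in ultrasound 1, 2 and 3. At such levels the added 1 shrinks the change, so its likeness to Tnf rests partly on that. Pim1 had 192, 164 and 200.7 FPKM in the controls and 167, 72.8 and 94.5 FPKM in ultrasound 1, 2 and 3, with ultrasound 1 again among the controls. Closest to Ccl5 were Lsp1, a leukocyte actin-binding protein (0.0506), Fanca, a DNA repair gene (0.0544), and Glipr1 (0.0646), each lowest in ultrasound 1. Fanca was also low, at 1.59 to 3.94 FPKM.

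Among receptors of these ligands, those for TNF, lymphotoxin and GM-CSF rose in ultrasound libraries. This list and the other 5 below were chosen with earlier results of these data known. Their counts beside the shares of all genes are therefore no test of the lists. Of the 15 listed, 14 were tested, 6 rose and 0 fell, where 6.55% of all genes rose. The list's median log2 change was 0.63 against 0.09 over all genes tested. Csf2rb, the signalling chain of the GM-CSF receptor, had 16.7, 7.06 and 6.19 FPKM in the controls and 34.6, 31.7 and 42.3 FPKM in ultrasound 1, 2 and 3 (log2 change 1.88 ± 0.33 (SE); limma adjusted p = 0.0312). Its partner Csf2ra rose by 1.33 ± 0.27 (limma adjusted p = 0.0392) and the lymphotoxin beta receptor Ltbr by 1.57 ± 0.27 (limma adjusted p = 0.0311). The TNF receptor Tnfrsf1b rose by 0.88 ± 0.18 (limma adjusted p = 0.0389), and the other 2 that rose were Tnfrsf1a and Ccr3. GM-CSF receptor chains and Ltbr are typical of myeloid cells, and the macrophage and monocyte list moved with them; its part was not tested. In ultrasound 2 and 3 the count of receptors that rose was 9 of 14, where 34.1% of all genes rose. The receptor list's median log2 change was 0.64 in ultrasound 1 alone. Leaving out control 2, control 3, ultrasound 2 or ultrasound 3 left 0 genes past the threshold in this list and in each of the other 5 lists below, as among all genes.

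Named here beside their ligands and outside the rule for named genes, the interferon gamma receptor chain Ifngr1 had 136, 116 and 122.7 FPKM in the controls and 192, 153 and 172 FPKM in ultrasound 1, 2 and 3 (log2 change 0.46, 95% interval 0.19 to 0.74; limma adjusted p = 0.0578). The Il2 receptor chains Il2rb and Il2rg, which T cells express at rest, had log2 changes of -0.05 (95% interval -0.29 to 0.20) and 0.08 (95% interval -0.19 to 0.35), with limma adjusted p of 0.766 and 0.631. Xcr1, a marker of cross-presenting dendritic cells, was under the filter at 0.0962 to 0.305 FPKM in controls and 0.121, 1.95 and 1.48 FPKM in ultrasound 1, 2 and 3.

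Among transcription factors that act on cytokine genes, AP-1 subunits fell in ultrasound libraries. Of 28 tested, 9 fell and 0 rose, where 1.56% of all genes fell and 6.55% rose, and the list's median log2 change was -0.41. The list was chosen with earlier results of these data known, so this contrast is a description and no test. They were the AP-1 subunits Fosb, Fosl2, Jun, Junb and Jund, the early factor Egr1, the NF-kB subunit Rel, and the interferon regulatory factors Irf1 and Irf4. Fosb went from 278, 285 and 284 FPKM in the controls to 110, 22.9 and 52.4 FPKM in ultrasound 1, 2 and 3 (log2 change -2.44 ± 0.50 (SE); limma adjusted p = 0.0385). The log2 change was -1.73 ± 0.34 for Jun (limma adjusted p = 0.0347), -1.77 ± 0.38 for Fosl2 (limma adjusted p = 0.0420) and -1.69 ± 0.32 for Egr1 (limma adjusted p = 0.0333). As for Ifng, ultrasound 1 lay between the controls and the other ultrasound libraries for these 4 genes. With scaling to the CD8 T cell markers 4 of 28 fell, where 70 of all genes did. In ultrasound 1 alone the list's median log2 change was -0.36. Without control 1 the count was 2, where 65 of all genes fell. In ultrasound 2 and 3 it was 14 lower and 4 higher of 28, where 19.7% of all genes fell and 34.1% rose.

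Of 12 genes listed for the control of mRNA decay at AU-rich elements and stem-loops, 2 fell and 0 rose, where 1.56% of all genes fell. The list's median log2 change was -0.58. The median was -0.79 in ultrasound 2 and 3 and -0.06 in ultrasound 1 alone, where 1 of the 12 was lower past the threshold against 0.441% of all genes. Zc3h12a (Regnase-1), an endonuclease that cuts stem-loops in cytokine mRNAs, went from 56.8, 55.9 and 61.2 FPKM in the controls to 31.9, 16.3 and 18.3 FPKM in ultrasound 1, 2 and 3 (log2 change -1.41 ± 0.23 (SE); limma adjusted p = 0.0307). Zfp36l1, which binds AU-rich elements, fell by 0.65 ± 0.14 (limma adjusted p = 0.0414). In ultrasound 2 and 3 the count was 8 lower and 2 higher of 12, where 19.7% of all genes were lower and 34.1% higher, and without control 1 it was 0, where 567 of all genes passed. With scaling to the CD8 T cell markers 1 fell, where 70 of all genes did.

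Among genes downstream of the cytokines, 1 passed the threshold in each of 2 lists, both lower. Over all genes tested 8.11% passed, 6.55% higher and 1.56% lower. Of 19 interferon gamma targets, 1 fell and 0 rose: Irf1, which is also in the list of transcription factors and had a mean of 193 ± 1.25 FPKM in controls and 121 ± 12.1 FPKM in ultrasound libraries (SD, n = 3 each), with a limma adjusted p of 0.0304. The list's median log2 change was 0.05, against 0.09 over all genes tested (-0.08 against -0.02 with median-of-ratios scaling), and with scaling to the CD8 T cell markers 0 passed, where 1285 of all genes did. Of 13 TNF and NF-kB targets, 1 fell and 0 rose: Tnfaip3, the feedback inhibitor A20, with 388, 395 and 390 FPKM in the controls and 190, 32.9 and 44.4 FPKM in ultrasound 1, 2 and 3 (limma adjusted p = 0.0487). That list's median was -0.02, and 0 of it passed with median-of-ratios, upper-quartile or CD8 T cell marker scaling, where 468, 623 and 1285 of all genes did, or without control 1, where 567 did. In ultrasound 2 and 3, 4 interferon gamma targets were higher and 5 lower past the threshold, and 3 TNF and NF-kB targets higher and 4 lower, where 34.1% of all genes were higher and 19.7% lower. In ultrasound 1 alone 0 interferon gamma targets passed and 1 TNF and NF-kB target was lower, where 1.41% of all genes passed and 2352 had an unadjusted p under 0.05. Of 28 other cytokines and chemokines, 22 were tested, 2 rose and 0 fell, where 6.55% of all genes rose. With median-of-ratios or upper-quartile scaling 1 rose, where 281 and 431 of all genes did. Without control 1 it was 5, where 502 of all genes rose. The count was 6 higher and 8 lower in ultrasound 2 and 3, where 34.1% of all genes were higher and 19.7% lower, and 1 higher in ultrasound 1 alone, where 0.967% were. Ccl9, a myeloid chemokine gene in the cluster of Ccl3 and Ccl5, had 8.22, 2.39 and 2.94 FPKM in the controls and 24.3, 11.7 and 22.0 FPKM in ultrasound 1, 2 and 3 (log2 change 1.97 ± 0.43 (SE); limma adjusted p = 0.0430). Tgfb1, which encodes the suppressive cytokine TGF-beta, had 81.7, 79.9 and 76.5 FPKM in the controls and 119, 125 and 150.5 FPKM in ultrasound 1, 2 and 3 (limma adjusted p = 0.0304).

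**Figure D4:**
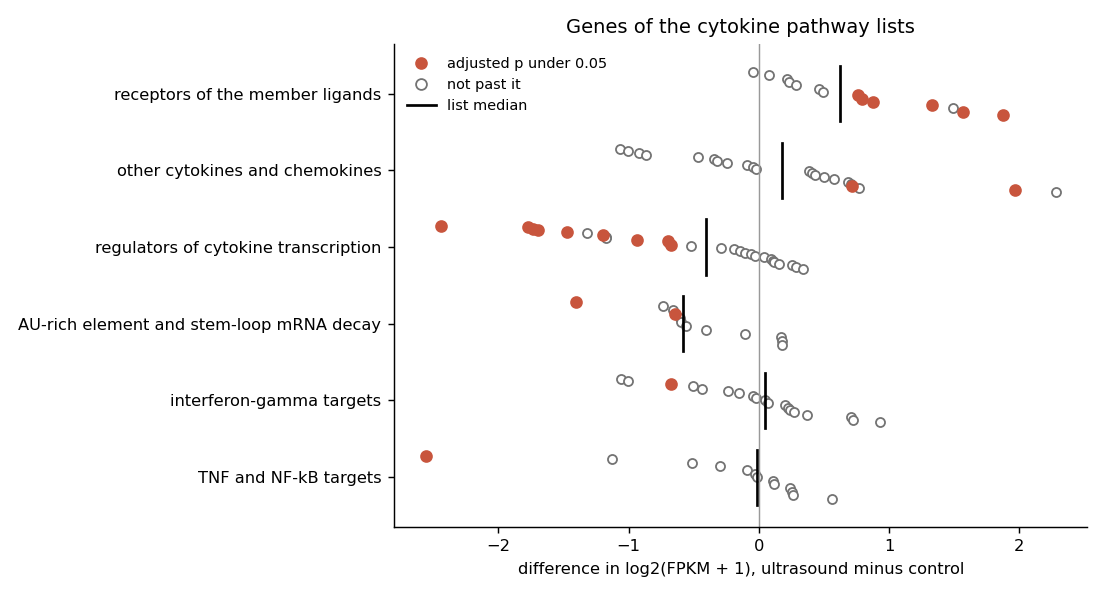
Difference in log2(FPKM + 1) between ultrasound and control libraries (horizontal axis) for each tested gene of 6 lists around the cytokines; filled points passed a limma adjusted p of 0.05 and the bar is the list's median. Filled points lie right of 0 among receptors (6 of 14) and left of 0 among transcription factors (9 of 28).

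**Figure D5:**
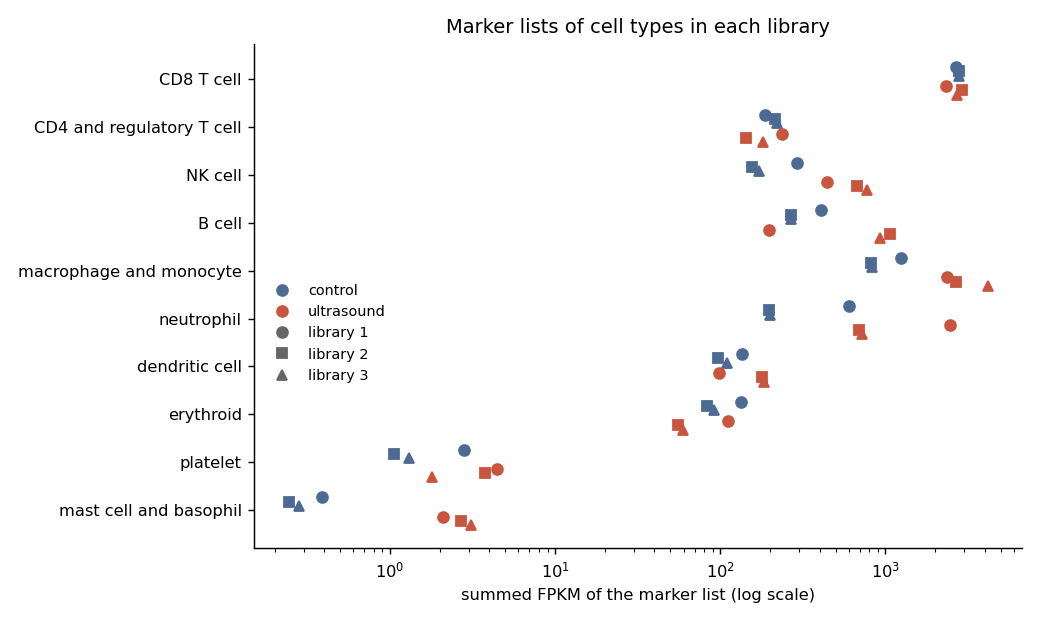
Summed FPKM of 10 marker lists (horizontal axis, log scale) in each control and ultrasound library. The macrophage and monocyte list lies at 820 to 1243 in controls and 2373 to 4160 in ultrasound libraries, and the B cell list is lowest in ultrasound 1 (197) and highest in ultrasound 2 (1073).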

How the data were processed

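RNA-seq of 6 libraries of sorted splenic CD8 T cells was used, grouped by their titles. The authors' table gives FPKM per library and gene. It also gives a signal column set (means of DESeq2 normalized counts, per the file headers), the fold change as a ratio of the authors' group means, its log2, and the authors' p-value and q-value. For the authors' steps, the submitters' processing notes name HISAT2, HTSeq, DESeq2, R 3.2.0 and mm10, without roles. A second, filtered table was not used.

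Genes with at least 1 FPKM in 3 libraries were tested with limma 3.58.1 (trend, robust; R 4.3.3) on log2(FPKM + 1), two-sided, Benjamini-Hochberg adjusted over 10655 genes at 0.05. Such fold changes understate the change of low genes. Il2 and Csf2 had an exact permutation test. Ultrasound 1 alone was fitted with a term for ultrasound 2 and 3, so its lone value is assumed to vary like the rest. Whole reads were recovered from the FPKM and the authors' group means: 100% of 52696 values under 500 reads lay within 0.05 of a whole number. No read is a counted molecule, so read numbers show counting error only. The fit was tested on simulated data with 200 genes changed 2-fold. At a dispersion of 0.01 (10674 genes tested) 98.5% of them passed, beside 13 unchanged genes, and at 0.05 (10672 genes tested) 57% passed, beside 7. The simulated libraries of a group varied alike, with none apart as ultrasound 1 was, so these shares need not hold for the real data.

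The members and lists were chosen with earlier results of these data known. Named are the members, up to 4 genes past the threshold per pathway list with the largest change, and the 3 genes most alike to Ifng, Tnf and Ccl5; the other genes past the threshold are given by name because few remained. Of the marker lists, each of the 10 is plotted and has values in the text. The B cell, macrophage and monocyte, neutrophil and NK cell lists are given beside a member. Alternatives covered scaling, filter, pseudocount, robust option, voom on recovered reads, the authors' values, a replicate block and each library left out. Tables and plots were made in Python 3.11.15 (pandas 2.3.3, numpy 2.4.6, scipy 1.17.1, matplotlib 3.10.9).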

Additional observations from a re-analysis of the deposited data

How the results depend on the processing

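Of 18 alternatives, Ifng kept its direction in all and its call in 11; the lost calls had limma adjusted p of 0.0592 without a filter, 0.0853 with the replicate block and 0.0777 for ultrasound 1 alone, besides the 4 fits without 1 library given above. The overall count of 864 genes (698 higher, 166 lower) was 468 with median-of-ratios factors (281 higher, 187 lower), which lowered the median change from 0.09 to -0.02; upper-quartile factors gave 431 higher and 192 lower, and scaling to CD8 T cell markers 1215 higher and 70 lower. It was 0 without a filter (4216 genes at an unadjusted p under 0.05), 150 in ultrasound 1 alone, 2179 in the authors' deposited table and 0 to 5727 with 1 library left out. It was 567 without control 1, 5727 without ultrasound 1 and 0 without any of the other 4. Members past the threshold numbered 1, against 0 without a filter, 2 in the authors' deposited table and 0 to 4 with 1 library left out. Distinct pathway genes past it numbered 20, against 13 with scaling to CD8 T cell markers, 0 without a filter, 3 in ultrasound 1 alone, 35 in the authors' deposited table and 0 to 65 with 1 library left out.

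The labels do not say whether the replicate numbers pair the libraries. Deviations of same-numbered libraries from their group means had correlations of -0.0406, 0.0513 and 0.0578. With 3 libraries per group and ultrasound 1 apart from ultrasound 2 and 3, these values cannot exclude a pairing. A replicate block left 0 genes, 0 members and 0 pathway genes past the threshold (3249 genes had an unadjusted p under 0.05).

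Signs turned only for members that had not passed, and the cause was not tested. In ultrasound 1 alone this held for Tnf (0.0333), Ltb (-0.28) and Ccl5 (-0.30). Ltb also turned with median-of-ratios factors (-0.0863), upper-quartile factors (-0.0563) and the authors' deposited values (-0.0725), and without control 1, ultrasound 2 or ultrasound 3, ranging from -0.0437 to 0.20 with 1 library left out. The difference in mean FPKM of Il2 was -0.107 and ranged from -0.282 to 0.060, turning without ultrasound 2; that of Csf2 was 0.126 and kept its sign. Il2 and Csf2 had 2 to 23 reads per library, and the exact test of 3 against 3 libraries could not go below p = 0.1 for either. The settings for Il2, Csf2 and the Ccl3 to Ccl4 ratio were added after the data were seen.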
